A study of Homo sapiens with 23 samples.

Results

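Acetylation of lysine 12 on the tail of histone H4 (H4K12ac) was compared with acetylation of lysine 5 on the same tail (H4K5ac) in NCI-H23, an established human non-small cell lung cancer line. The comparison used the 4 chromatin immunoprecipitation sequencing (ChIP-seq) libraries labelled with these targets, 2 for each mark, out of 23 samples in the series. Their peak lists held 453867 of the 2889028 peaks in all lists, and the members were chosen by the antibody named in the labels, not by any measured value. The other libraries, 2 for each target, mapped H4K8ac, a paired H4K5acK8ac epitope, H3K27ac, H3K4me1, H3K4me3, H3K36me3, H3K9me3, H3K27me3 and the protein BRD2, and 1 further sample was an input. Both antibodies compared here were rabbit polyclonals. The shared treatment protocol names the BET inhibitor JQ1 or DMSO, but no label says which of them any of the 4 libraries received, nor whether the replicates were separate cultures, so the spread between replicates may be technical.

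Acetylation neutralises the charge of a lysine and makes a binding surface for bromodomains, the modules by which BET proteins such as BRD2 read acetylated histones. Newly made H4 carries acetyl groups on lysines 5 and 12 when it is deposited behind the replication fork, and those groups are later removed. On settled chromatin, both positions are also acetylated at active promoters and enhancers. H3K4me3 marks promoters, H3K27ac with H3K4me1 marks active enhancers, H3K36me3 marks transcribed gene bodies, and H3K27me3 and H3K9me3 mark chromatin kept silent by Polycomb and by heterochromatin proteins. A promoter that carries H3K4me3 and H3K27me3 together is called bivalent.

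The H4K12ac lists were weaker and narrower than the H4K5ac lists. H4K12ac replicate 1 had 107745 peaks and replicate 2 had 102158, against 125816 and 118148 for H4K5ac. The median H4K12ac peak was 288 bp wide in replicate 1 and 275 bp in replicate 2, and the median H4K5ac peak 330.0 and 353 bp. The lists did not overlap in number of peaks, in width or in covered length, which was 48.3 and 43.5 Mb for H4K12ac and 72.4 and 72.6 Mb for H4K5ac. The authors' fold enrichment of the strongest peak was 21.7 and 24.0 for H4K12ac and 37.3 and 37.8 for H4K5ac, while the medians were closer, at 3.03 and 3.14 against 3.29 and 3.27. Each peak also has a −log10 q value, the peak caller's significance after correction for the number of candidates. Peaks with a −log10 q of at least 5 numbered 24297 and 20577 for H4K12ac and 38485 and 39460 for H4K5ac, and peaks with q above 0.05 were 16.4% and 21.7% of the H4K12ac lists against 5.93% and 5.46%. Read numbers are not part of a peak list, which leaves the sequencing depth unknown, and its part in these differences was not tested.

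Most H4K12ac signal lay where H4K5ac was also called, while much H4K5ac signal had no H4K12ac peak. Of all H4K12ac peaks, 58.2% ± 0.348 (SD between the H4K12ac libraries, n = 2) shared at least 1 base with an H4K5ac peak, with a range of 57.9% to 58.6% over the 4 combinations of libraries. In the other direction, 40% ± 1.09 (SD between the H4K5ac libraries, n = 2) of H4K5ac peaks met an H4K12ac peak, with a range of 37.4% to 42.6%. Between the H4K12ac libraries used as the target, the SD of that share was 2.58. The yardstick for both values is how often replicates of 1 mark meet each other, which was 46.0% and 50.4% for H4K12ac and 59.3% and 61.2% for H4K5ac. An H4K12ac peak therefore met an H4K5ac list more often than it met its own replicate in all 4 combinations, and an H4K5ac peak met an H4K12ac list less often than its own replicate in all 4. The H4K5ac lists are longer and cover more of the genome than the H4K12ac lists. Among the 10000 strongest peaks of each list, where the lists have equal numbers, the shares were 85.6% for H4K12ac and 77.4% for H4K5ac, against 79.6% and 86.7% between replicates. With 2 libraries against 2, no exact two-sided permutation test can go below p = 0.33, so these and all later values are given with their spread and no test.

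Overlap rose with peak strength in both directions, but not at the same strength. H4K12ac peaks of replicate 1 with q above 0.05 met H4K5ac in 31.9% of cases, and those with a −log10 q from 5 to 10 did so in 95.4%, against 97.3% in replicate 2. H4K5ac peaks with q above 0.05 seldom met H4K12ac, with 12.4% for replicate 1 and 12.8% for replicate 2. In the range from 5 to 10, H4K5ac peaks met H4K12ac in 61.5% and 59.2% of cases, although 91.0% and 90.0% of them were found again in the other H4K5ac replicate. The gap to the replicate closed at the top, where 99.8% of the H4K5ac peaks with a −log10 q of 20 or more held H4K12ac in either replicate. From 3 to 5 the gap was of similar size, with 30.7% and 30.1% of H4K5ac peaks meeting H4K12ac against 61.3% and 60% meeting their replicate. Below that, overlap with either was low, and most H4K5ac peaks without H4K12ac were weak, with a median −log10 q of 2.36 and 2.55 for those that met neither H4K12ac list.

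**Figure D1:**
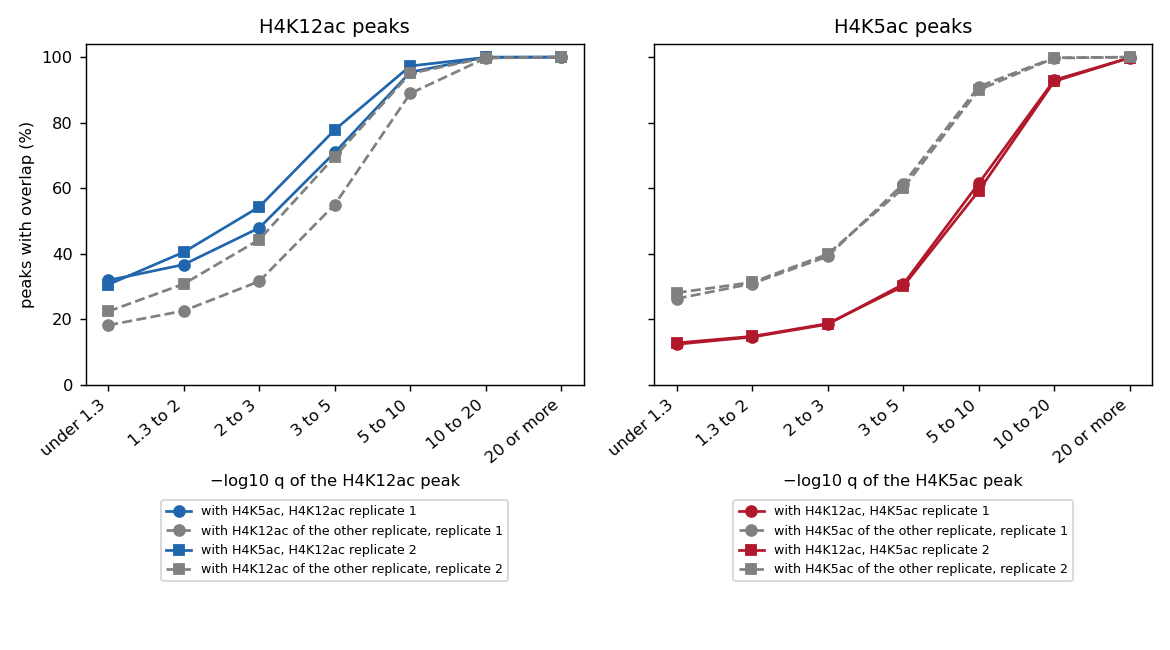
Share of peaks that overlap the other mark (coloured lines) or the replicate of their own mark (grey dashed lines), in percent, by the −log10 q of the peak, for each of the 2 libraries of H4K12ac (left) and H4K5ac (right). H4K12ac peaks met H4K5ac at least as often as their own replicate, while H4K5ac peaks between 5 and 10 met H4K12ac in 61.5% and 59.2% of cases against 91.0% and 90.0% for their replicate.

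Shared peaks were wider and stronger than separate peaks in every list. H4K12ac peaks that met both H4K5ac lists had a median width of 435 bp in replicate 1 and 409 bp in replicate 2, against 229 and 220.0 bp for those that met neither. H4K5ac peaks that met both H4K12ac lists had median widths of 878 and 909 bp, against 256 and 270.0 bp. The median fold enrichment of shared H4K5ac peaks was 5.76 and 5.79 and that of separate ones 3.01 and 2.96, while for H4K12ac it was 3.51 and 3.73 against 2.74 and 2.86. The contrast between shared and separate peaks was therefore larger for H4K5ac, in width and in enrichment, in both replicates.

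H4K12ac peaks sat inside wide H4K5ac domains in pieces. Of H4K5ac peaks under 300 bp, 7.90% to 9.85% held the summit of an H4K12ac peak, the range covering the 4 combinations of libraries. Of those of 2400 bp or more, 99.7% to 99.9% did, with a mean of 2.59 to 2.77 H4K12ac summits each and 68.2% to 75.9% of their bases inside H4K12ac peaks. Among all H4K5ac peaks with an H4K12ac summit, 20.1% to 22.8% held 2 or more. Wider H4K5ac peaks were also stronger, with a median −log10 q of 41.8 and 43.7 in the widest class against 2.11 and 2.27 in the narrowest.

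Within shared peaks, the highest points of the marks lay close together. The median distance from an H4K12ac summit to the nearest H4K5ac summit was 135 to 150.0 bp over the 4 combinations. Between H4K5ac replicates it was 106 and 112 bp, and between H4K12ac replicates 105 and 112 bp. In the other direction, from H4K5ac summits of replicate 1, the nearest H4K12ac summit was 97.0 and 99.0 bp away. Those medians, and both from H4K5ac replicate 2, were below all the replicate distances. Whether the marks lay farther apart than replicates thus depended on the direction of measurement. H4K12ac summits fell in the middle 20% of the length of an H4K5ac peak in 24.9% to 25.1% of cases, where an even spread would give 20%, and left of its centre in 50.0% to 50.2%. Summits of the other H4K5ac replicate fell in the middle 20% slightly more often, in 26.3% and 26.9% of cases. The own summits of those H4K5ac peaks that held an H4K12ac summit did so in 33.6% to 34.4%. Since wide H4K5ac peaks hold several H4K12ac peaks, the strongest H4K12ac summit in each H4K5ac peak was also measured. It lay 84.0 to 90.0 bp from the H4K5ac summit in the median, against 76.0 bp for the strongest summit of H4K5ac replicate 2 inside replicate 1 peaks. For H4K5ac peaks up to 600 bp, this gap and the replicate gap differed by at most a few bases, as the plot of summit gaps by width shows. In H4K5ac peaks of 2400 bp or more, the gap was 122 to 140.0 bp, above the 95.0 bp between H4K5ac replicates with replicate 1 as the target.

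**Figure D2:**
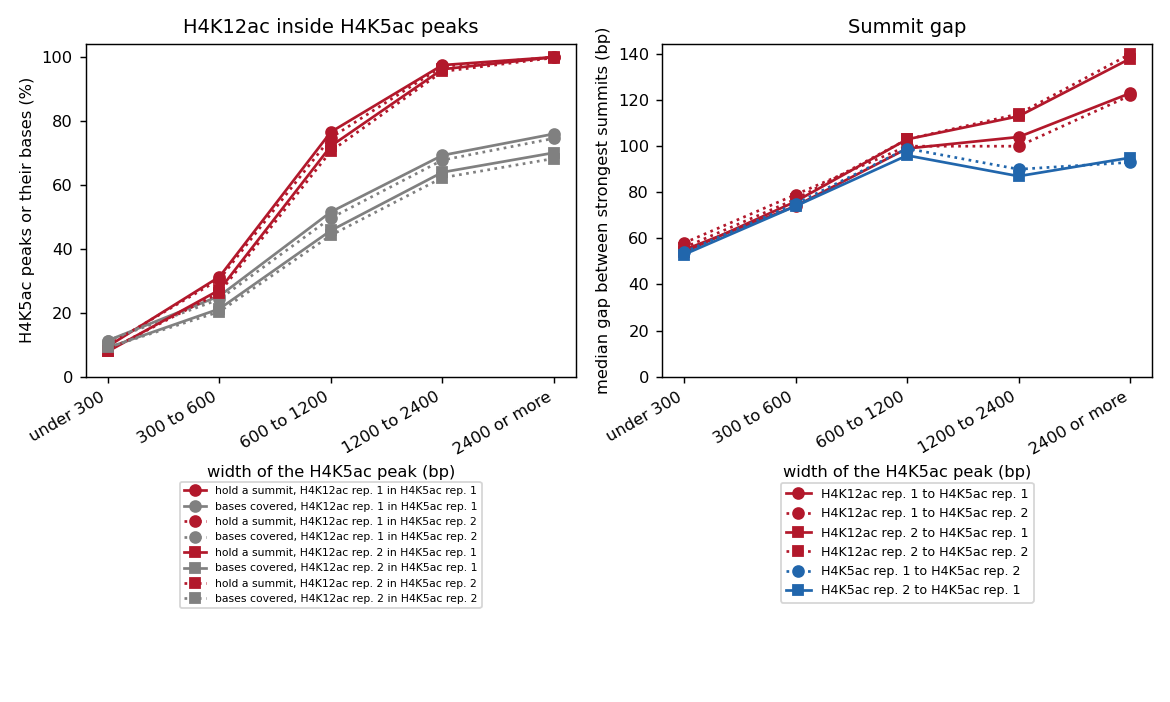
Left, share of H4K5ac peaks that hold an H4K12ac summit (red) and share of their bases inside H4K12ac peaks (grey), in percent, and right, median gap in bp between the strongest summits, both by width of the H4K5ac peak; each line is 1 combination of libraries. The share with a summit went from 7.90% to 9.85% under 300 bp to 99.7% to 99.9% at 2400 bp or more, where H4K12ac summits lay 122 to 140.0 bp from the H4K5ac summit.

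At promoters, the marks were placed alike relative to H3K4me3. In H3K4me3 peaks of replicate 1 that held both marks, the strongest summits of H4K12ac and H4K5ac were 87.0 to 96.0 bp apart, between the 75 bp for H4K5ac replicates and the 106 bp for H4K12ac replicates. The H4K12ac summit was the nearer of the pair to the H3K4me3 centre in 47.8% to 50.9% of these peaks, so the order changed between libraries. Summits of BRD2, the bromodomain protein mapped in the same line, were taken from its peaks of −log10 q of at least 5 that met both marks. From these, the nearest H4K12ac summit was 91.0 to 100 bp away and the nearest H4K5ac summit 100 to 114 bp. H4K12ac was the nearer in 52.1% to 54.2% of cases, over all 8 combinations of BRD2, H4K12ac and H4K5ac libraries. Here any summit counted, not only the strongest, and a list with more summits has more chances to be nearer. H3K4me3 peaks with a summit held a mean of 1.72 to 1.74 for H4K12ac and 1.57 to 1.62 for H4K5ac. The part of summit number in this order was not tested.

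To ask what kind of chromatin each class lay in, peaks of a mark that overlapped between its 2 libraries were joined into regions, 44311 for H4K12ac and 63735 for H4K5ac. Of the H4K12ac regions, 3378 (7.62%) had H4K5ac in neither list and 37652 (85.0%) in both. Of the H4K5ac regions, 17381 (27.3%) had H4K12ac in neither list and 32083 (50.3%) in both. Regions with the other mark in 1 list only, 3281 and 14271, were kept apart. The separate H4K12ac regions were weak: 8 of 3378 reached a −log10 q of 5 in both libraries, against 1142 of 17381 separate H4K5ac regions. Their median width was 371 bp, against 461 bp for the separate H4K5ac regions and 715 and 1187 bp for the shared regions of H4K12ac and H4K5ac.

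Shared regions were mostly promoters and enhancers, and the separate regions of the marks lay in different chromatin. A context mark was called where a region met both of its lists. Of the shared H4K12ac regions, 58.7% were promoter-like (H3K4me3) and 27.8% active enhancer-like (H3K27ac and H3K4me1 without H3K4me3). Of the separate H4K5ac regions, 27.9% (27.3% to 28.6%, Wilson 95% interval, counting error only) were active enhancer-like, against 7.28% (6.45% to 8.21%) of the separate H4K12ac regions. The separate H4K12ac regions were more often repressive, at 13.3% (12.2% to 14.5%) against 3.06% (2.81% to 3.32%). Repressive meant H3K27me3 or H3K9me3 in a region that was not promoter-like, active enhancer-like or gene body-like. They were also more often gene body-like (H3K36me3 without H3K4me3 or the pair of H3K27ac and H3K4me1), at 10.9% (9.89% to 12%) against 3.34% (3.09% to 3.62%). Regions of the repressive and gene body-like classes could still carry H3K27ac or H3K4me1 alone. The promoter-like share was 8.61% in both classes of regions, but its order depended on the setting: over the peaks of single libraries, separate H4K12ac peaks were lower by a difference of -2.97 percentage points, and with the 10000 strongest peaks they were higher by 19.6. With those strongest peaks, the repressive difference, 10.2 over regions and 6.59 over all peaks, was 0.737 percentage points, and the gene body-like difference, 7.55 over regions and 4.85 over all peaks, was 0.160. No context mark was called at 51.3% of the separate H4K12ac regions and at 34.2% of the separate H4K5ac regions, against 4.42% of the shared H4K12ac regions.

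**Figure D3:**
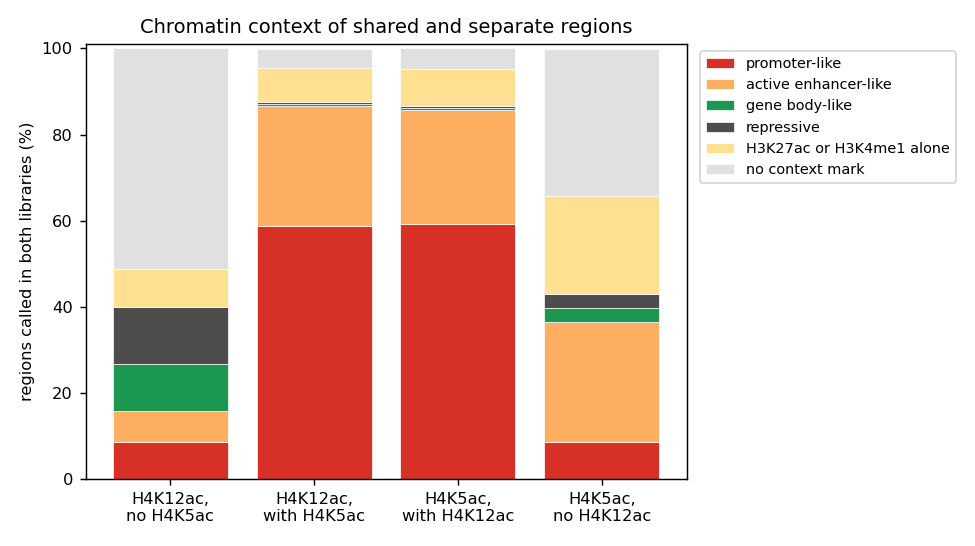
Context of regions called in both libraries of a mark, as stacked shares in percent, for H4K12ac and H4K5ac regions with the other mark in neither list (outer bars) or in both lists (inner bars). The shared bars are mostly promoter-like, the separate H4K5ac bar has 27.9% active enhancer-like regions and the separate H4K12ac bar has 13.3% repressive and 10.9% gene body-like regions.

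The repressive mark that set the separate H4K12ac regions apart was H3K27me3, the Polycomb mark. H3K27me3 was present in both lists at 497 of 3378 separate H4K12ac regions, 14.7% (13.6% to 15.9%), against 3.21% of all H4K12ac regions and 1.78% of the shared ones. At separate H4K5ac regions it was present at 113, or 0.650% (0.541% to 0.781%), against 1.48% of all H4K5ac regions. Each H3K27me3 library alone gave the same order, with 17.6% and 20% of the separate H4K12ac regions against 1.05% and 1.38% of the separate H4K5ac regions. H3K9me3, the heterochromatin mark, was present at 6.10% of separate H4K12ac regions, against 2.62% of all H4K12ac regions, and at 3.99% of separate H4K5ac regions, against 3.47% of all H4K5ac regions. H3K36me3 was present at 16.2% of the former, against a background of 10.6%, and at 11.2% of the latter, where the background was also 11.2%.

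The share of separate H4K12ac regions with H3K27me3 was higher among stronger regions. It was 12.4% where the lower −log10 q of the 2 libraries was under 1.3, 14.0% from 1.3 to 2, 18.6% from 2 to 3 and 27.5% of the 120 regions from 3 to 5. For separate H4K5ac regions the same shares were 1.25%, 0.919%, 0.539% and 0.450%. The direction of the H3K27me3 share along strength was thus opposite in the classes over these bins. At separate H4K12ac regions a rise was not particular to H3K27me3. From the weakest to the strongest of these bins, H3K4me3 went from 7.07% to 21.7% and H3K4me1 from 22.2% to 39.2%. H3K36me3 changed less, from 16.5% to 17.5%. Most separate H4K12ac regions lay in the weaker bins, with 1415 under 1.3 and 1200 from 1.3 to 2. The difference of 14.1 percentage points fell to 8.32 without H4K12ac replicate 1, when H4K12ac peaks of the remaining library alone stood in for regions of both.

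**Figure D4:**
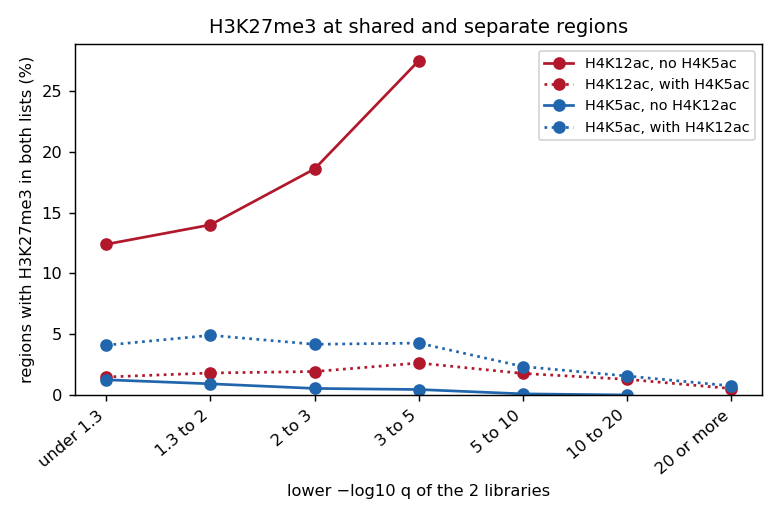
Share of regions with H3K27me3 in both lists, in percent, by the lower −log10 q of the 2 libraries of the region's own mark, for separate (solid) and shared (dotted) regions of H4K12ac (red) and H4K5ac (blue); bins with under 50 regions are left out. Separate H4K12ac regions went from 12.4% to 27.5% and separate H4K5ac regions from 1.25% down.

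Part of this H3K27me3 overlap lay at bivalent promoters. Of the 497 separate H4K12ac regions with H3K27me3, 128 also had H3K4me3, 129 had H3K4me1, 121 had H3K9me3, and 0 had H3K27ac in both lists. Those 128 were 44.0% (38.4% to 49.7%) of the 291 promoter-like regions of the class. The corresponding share was 21.7% (18.6% to 25.2%) of promoter-like H4K12ac regions with H4K5ac in 1 list and 2.74% (2.53% to 2.96%) of those with H4K5ac in both. For promoter-like H4K5ac regions without H4K12ac it was 25 of 1496, or 1.67% (1.13% to 2.46%). These sets differ in strength, with a median lower −log10 q of 1.66, 1.72, 5.94 and 2.68 in the order given. The part of strength in these shares was not tested. Among regions without H3K4me3 in either list, the H3K27me3 share was still 11.4 percentage points higher at separate H4K12ac regions than at separate H4K5ac regions.

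Promoters chosen without either acetyl mark gave the same order. H3K4me3 regions of both libraries were split into 1766 with H3K27me3 in both lists and 17557 with it in neither. At the bivalent regions, H4K12ac had a peak in 69.6% (replicate 1) and 67.7% (replicate 2), and H4K5ac in 56.6% and 55.8%. At H3K4me3 regions without H3K27me3 the order turned, with 85.5% and 85.0% for H4K12ac and 89.6% and 89.1% for H4K5ac. The replicates of the marks did not overlap in either set. H4K12ac in both libraries with no H4K5ac peak in either was seen at 7.64% of bivalent regions and 0.211% of the others, and the reverse pattern at 1.02% and 1.73%.

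The order at bivalent promoters depended on how peaks were selected. With the 100000 strongest peaks of each list, H4K12ac met 67.8% and 67.2% of the bivalent regions and H4K5ac 52.6% and 53.0%, the same order with lists of equal length. With the 10000 strongest peaks, the values were 6.63% and 6.80% against 3.85% and 4.25%. With peaks of −log10 q of at least 5, where the H4K5ac lists are the longer, the order was reversed, at 25.9% and 19.7% against 30.1% and 30.6%. The H4K12ac minus H4K5ac difference, less that at H3K4me3 regions without H3K27me3, was 16.6 percentage points with all peaks. Under these 3 settings it was 4.60 to 18.3. At −log10 q of at least 5 the positive value was no surplus, because H4K12ac was below H4K5ac in both sets. At H3K4me3 regions without H3K27me3 the shares were then 67.0% and 62.6% against 80.3% and 81.0%. That deficit was larger in percentage points than the bivalent one, but not as a proportion of the H4K5ac share.

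Other acetyl marks at the bivalent regions were less even between replicates. H4K8ac had a peak in 53.1% and 27.3% of them, the H4K5acK8ac epitope in 47.8% and 63.8%, and H3K27ac in 27.1% and 36.3%. H4K12ac was above each of these lists in both of its replicates. That order is for all peaks, and these lists differ in length, from 71837 peaks (H4K5acK8ac replicate 2) to 224726 (H4K8ac replicate 1). Its dependence on peak selection was not tested for these marks. At H3K4me3 regions without H3K27me3, H4K5acK8ac met 90.2% and 92.6% and H3K27ac 86.0% and 89.6%, above H4K12ac, while H4K8ac met 81.8% and 61.8%, below it.

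Outside promoters, H4K12ac and H4K5ac differed in opposite directions at enhancers and at Polycomb chromatin. At 25295 H3K27ac regions with H3K4me1 and without H3K4me3, H4K5ac had a peak in 59.2% and 58.3% and H4K12ac in 41.6% and 38.1%. At 120551 H3K27me3 regions without H3K4me3 and H3K27ac, H4K12ac had a peak in 3.59% and 3.07% and H4K5ac in 1.16% and 1.09%. The latter shares are small, and with peaks of −log10 q of at least 5 they fell to 0.0680% and 0.0523% against 0.0382% and 0.0481%. With the 100000 strongest peaks the order stayed, at 3.19% and 2.96% against 0.661% and 0.757%. With the 10000 strongest there was no order, at 0.00498% and 0.0124% for H4K12ac against 0.00830% in both H4K5ac replicates. With all peaks, H4K8ac met 2.51% and 1.51% of these H3K27me3 regions, BRD2 2.97% and 1.55% and H4K5acK8ac 0.177% and 0.226%. A share above that of H4K5ac was thus not particular to H4K12ac. The share that randomly placed peaks would give was not computed. At H3K9me3 regions without these active marks, H4K12ac met 1.76% and 1.79% and H4K5ac 1.10% and 1.02%, an order that turned to 0.0539% and 0.0565% against 0.0670% and 0.0818% with a −log10 q of at least 5. At 44730 H3K36me3 regions without H3K4me3, H3K4me1 and H3K27ac, H4K12ac met 0.981% and 1.16% and H4K5ac 0.651% and 0.577%. There H4K12ac alone, in both libraries, was seen at 18 regions and H4K5ac alone at 21, and the order turned among peaks with a −log10 q of 5 or more, to 0.00447% and 0.00894% against 0.0112% and 0.0134%.

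**Figure D5:**
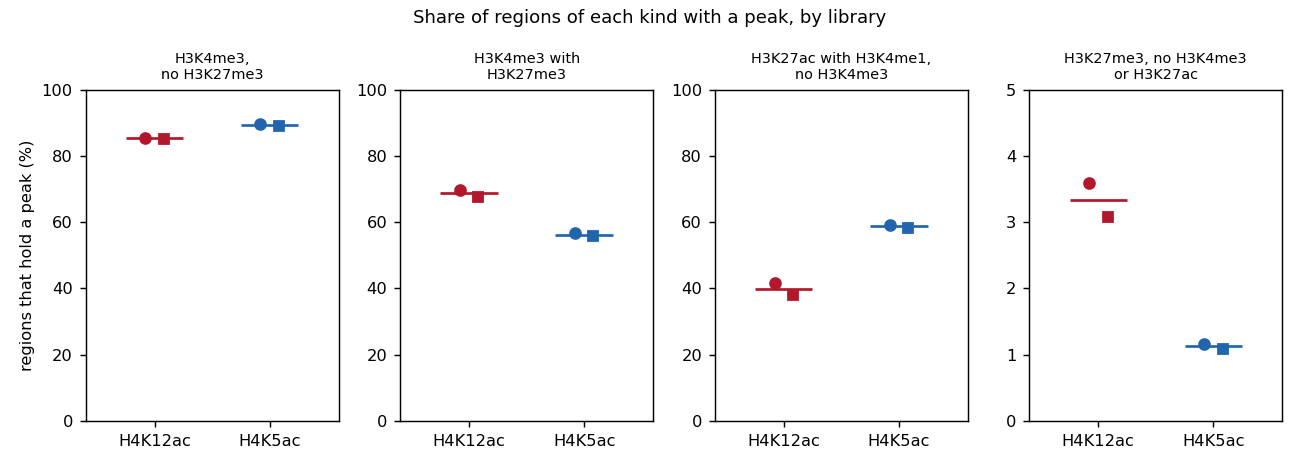
Share of regions of 4 kinds, defined by H3 marks alone, that hold an H4K12ac (red) or H4K5ac (blue) peak, in percent; circles are replicate 1, squares replicate 2 and bars the mean, and the right panel has its own scale. H4K12ac is higher at H3K4me3 regions with H3K27me3 (69.6% and 67.7% against 56.6% and 55.8%) and lower at H3K27ac regions with H3K4me1 (41.6% and 38.1% against 59.2% and 58.3%).

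At H4K5ac peaks of similar strength, H4K12ac was called more often at promoters than at enhancers. Among H4K5ac peaks with a −log10 q from 5 to 10, 80.3% (replicate 1) and 78.9% (replicate 2) of the promoter-like ones met H4K12ac, against 59.0% and 56.7% of the active enhancer-like ones. The mean difference was 21.8 percentage points, and it ranged from 18.4 to 25.2 when each library was left out in turn. It was smaller at other strengths of H4K5ac, 14.3 for a −log10 q from 2 to 3 and 9.42 from 10 to 20. The median −log10 q of the sets was near equal, at 7.00 and 7.07 for promoter-like and 6.86 and 6.83 for enhancer-like peaks. Repressive H4K5ac peaks of this strength met H4K12ac in 33.8% and 34.5% of cases and gene body-like ones in 26.4% and 28.5%, from 229 to 249 peaks per library. In the reverse direction, H4K12ac peaks of replicate 1 in that range met H4K5ac in 98.6% of cases when promoter-like and 98.2% when enhancer-like, both near the ceiling of the measure. Repressive H4K12ac peaks of that range and replicate met H4K5ac in 38.3% of cases (103 peaks) and gene body-like ones in 51.4% (74 peaks).

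BRD2 and the paired epitope followed the shared class. BRD2, a BET protein, had peaks in both lists at 35.5% of shared H4K12ac regions and 39.0% of shared H4K5ac regions, against 30.2% and 20.1% of all regions of those marks. It had them at 0.237% of separate H4K12ac regions and 0.391% of separate H4K5ac regions. The H4K5acK8ac epitope, which includes lysines 5 and 8, was found at 91.4% of shared H4K5ac regions and 92.2% of shared H4K12ac regions. It was found at 40% of separate H4K5ac regions and at 4.71% of separate H4K12ac regions, 159 regions without an H4K5ac peak. H4K8ac, acetylation of the lysine between these positions, was found at 60.3% of shared H4K12ac, 19.1% of separate H4K5ac and 12.4% of separate H4K12ac regions. Strength differs between the classes, and at a −log10 q from 3 to 5 the paired epitope was still at 94.2% of shared H4K12ac regions, 56.8% of separate H4K5ac regions and 12.5% of separate H4K12ac regions. At that strength, BRD2 was at 19.6% of shared and 1.67% of separate H4K12ac regions, and at 4.08% of shared and 0.475% of separate H4K5ac regions. H4K8ac was then at 20.5% of separate H4K5ac and 18.3% of separate H4K12ac regions.

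Single regions show the pattern at its extremes (hg19 coordinates). Among shared regions, chr2:232570712-232573038 had the highest enrichment of the 5 named, 21.7 and 24.0 for H4K12ac and 37.3 and 37.8 for H4K5ac. It also had H4K8ac, H4K5acK8ac, H3K27ac, H3K4me1, H3K4me3 and BRD2 in both lists. The shared region with the highest lower −log10 q, chr1:115299643-115301931, had an H4K12ac enrichment of 12.6 and 16.7 and an H4K5ac enrichment of 21.1 and 20.9. All 5 shared regions chosen by this rule were promoter-like and held BRD2 in both lists.

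Of the 5 strongest separate H4K5ac regions, 3 were active enhancer-like. The strongest, chr3:160379322-160379874, had an enrichment of 6.61 and 6.98 with H4K8ac, H4K5acK8ac, H3K27ac and H3K4me1 in both lists, and the nearest H4K12ac peaks were 353 and 271 bp away. At chr7:80512170-80513032 the enrichment was 6.52 and 6.16, with H4K5acK8ac, H3K27ac and H3K4me1, and H4K12ac peaks began 177 and 518 bp away. Several of these regions therefore bordered an H4K12ac peak without touching it. The farthest from H4K12ac was chr20:51774381-51774755, with an enrichment of 5.37 and 5.18, H4K5acK8ac as the only other target in both lists, and the nearest H4K12ac peaks 17939 and 24751 bp away.

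The 5 strongest separate H4K12ac regions were more mixed. The region chr11:82443671-82444227 had an enrichment of 4.45 and 5.28 and carried H3K4me3 and H3K27me3 in both lists, the bivalent combination described above. Its nearest H4K5ac peak was 276 bp away in replicate 1 and 36954 bp away in replicate 2. At chr2:83281084-83281637, enriched 4.59 and 4.76, H3K9me3 and H4K5acK8ac were in both lists and H4K5ac peaks were 640818 and 156762 bp away. The first of the class by −log10 q, chr19:27735175-27735500, had an enrichment of only 2.17 and 2.74 and held peaks in 12 of the 22 lists, H3K9me3, H3K27me3 and BRD2 among them. Whether that region collects reads regardless of the antibody was not tested. The remaining regions were chr18:74322855-74323168, enriched 3.74 and 4.48 with no context mark, and chr2:96937913-96938211, enriched 3.40 and 3.71 with H3K27ac and H3K36me3.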

How the data were processed

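Chromatin of NCI-H23 cells was immunoprecipitated with antibodies to 11 targets, 2 libraries each, and 1 input was sequenced. Per the submitters' processing notes, BWA, MACS2 and the build hg19 were used; caller settings and the control are not given in the sources used here. Each deposited list gives, per peak, the authors' fold enrichment (a ratio), −log10 p and −log10 q, a score (used for nothing) and the summit. Each library has a list of its own. No gene names or sequences are given, because an hg19 genome or annotation was not used here.

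Overlap meant at least 1 shared base. Summit positions, distances, widths and context were computed with Python 3.11.15, numpy 2.4.6 and pandas 2.3.3, in code tested on simulated lists. Regions were joined from peaks that overlapped between the 2 libraries of a mark. Wilson intervals (95%) cover counting error only, since peaks are not replicates. The regions named are, per class, the 5 with the highest lower −log10 q of the 2 libraries, leaving out chromosome 8. The marks and lists were chosen with earlier results of these data known. The H3K27me3, bivalent-promoter and matched-strength comparisons, and their alternatives, were chosen after values were seen. Libraries were not treated as paired by replicate number (correlation of deviations in peak number -0.0444 over 23306 bins of 100000 bp). That value cannot show whether libraries with the same number shared a culture or batch, which remains unknown. Alternatives covered peak strength, overlap rule, context rule and each library left out.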

Additional observations from a re-analysis of the deposited data

How the results depend on the processing

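Of 128 alternatives for 13 results, 79 stayed within the spread between libraries (the larger of the SDs between the H4K12ac and between the H4K5ac libraries), 44 moved further and 5 changed sign. For all results but the H3K27me3 difference, leaving out 1 library shifts the mean by less than this spread by construction. Those alternatives could not count as moved, so the 79 overstates stability. The H3K27me3 difference, rebuilt without each library, moved in each case. With the 10000 strongest peaks, the share of H4K12ac peaks with H4K5ac was 85.6%, the reverse share 77.4%, the width ratio (main 1.21) 1.59, the summit distance (main 142 bp) 70.8 bp and the share of H4K12ac summits in the middle 20% of an H4K5ac peak (main 25%) 33.1%. With −log10 q of at least 5 they were 94.3%, 46.7%, 1.13, 98.2 bp and 30%. With 50% of the peak covered the shares were 53.3% and 28.2%, and with windows of 250 bp around summits the first was 49.9%.

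Differences between separate H4K12ac and separate H4K5ac peaks are in percentage points. The promoter-like difference was -2.97 and its sign depended on the setting: 19.6 with the 10000 strongest peaks, 2.08 at −log10 q of at least 5, -4.29 with 50% covered, 5.31 with summit windows and 0.00747 with regions of both libraries. The active enhancer-like difference of -12.6 was -21.4, -23.4, -14.3, -5.83 and -20.7 in the same order, and -23.1 with a context mark in either list. The gene body-like difference of 4.85 was 0.160 with the strongest peaks, 2.31 at −log10 q of at least 5, 3.26 with summit windows and 7.55 with regions. The repressive difference of 6.59 was 0.737, 5.05, 5.46 and 10.2 in that order, and 11.7 with a context mark in either list.

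The H3K27me3 difference of 14.1 was 21.1 with H3K27me3 in either list, 7.32 over peaks of single libraries, 19.7 at −log10 q of at least 2 and 11.4 without H3K4me3. The promoter against enhancer difference of 21.8 was 14.3 for H4K5ac −log10 q of 2 to 3 and 9.42 for 10 to 20. The H4K12ac surplus at bivalent regions, 12.5, was 2.66 with the 10000 strongest peaks, 14.7 with the 100000 strongest and -7.53 at −log10 q of at least 5. Relative to other H3K4me3 regions, 16.6 became 4.60, 18.3 and 8.38, the last with H4K12ac below H4K5ac in both sets. The cause of these changes was not tested.

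Leaving out each library in turn gave 58.0% to 58.5% and 38.2% to 41.8% for the overlap shares, 1.17 to 1.25 for the width ratio, 138 to 147 bp for the summit distance and 24.9% to 25.1% for the middle 20%. It gave -3.16 to -2.79, -13.3 to -12.0, 4.46 to 5.24 and 6.13 to 7.05 for the promoter-like, enhancer-like, gene body-like and repressive differences. The H3K27me3 difference was 8.32 to 11.0, the promoter against enhancer difference 18.4 to 25.2, the bivalent surplus 11.5 to 13.4 and its relative form 15.9 to 17.3. The replicate block, comparing only libraries with the same number, gave 58.2%, 40%, 1.21, 142 bp, 25%, -2.95, -12.7, 4.85, 6.61, 22.3, 12.5 and 16.6 in the order of these results without the H3K27me3 difference, for which it was not run, and moved none beyond the spread between libraries.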

Other observations

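Separate regions were not spread evenly over chromosomes. Among chromosomes with more than 100 H4K12ac regions, the share without H4K5ac was highest on chromosome 18, at 116 of 742 (15.6%), followed by chromosome 7 at 297 of 2520 (11.8%), and lowest on chromosome 22 at 21 of 920 (2.28%), against 7.62% over all. For H4K5ac regions without H4K12ac, chromosome 18 was also highest, at 352 of 1081 (32.6%), and chromosome 19 lowest, at 538 of 3419 (15.7%), against 27.3% over all. By 1 Mb windows, the separate H4K12ac regions were most numerous at chr12:2000001-3000000, with 26, and at chr19:1000001-2000000, with 25. The number of all H4K12ac regions per window was not counted, so these counts do not show a higher share there. Over the whole chromosomes the share was 9.58% on chromosome 12 and 5.12% on chromosome 19.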
